A study of Mus musculus with 6 samples.

Results

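The actin genes encode the protein of which actin filaments are built, and this account describes 5 of them in C2C12 cells treated with siRNA against calponin 3 (CNN3). Members were taken by name: of the 6 actin genes of the mouse, 5 have transcripts among the 11835 genes of the data (Acta1, Acta2, Actg2, Actb and Actg1), while the cardiac gene Actc1 was not analysed here. C2C12 is a line of mouse myoblasts, precursors of skeletal muscle cells, which fuse into multinucleated myotubes when serum is reduced. All cells were grown with 10% fetal bovine serum and then differentiated in 2% horse serum, and the labels call them mouse myotubes. One group was transfected with NC siRNA, the negative control (siNC, n = 3), and the other with CNN3 siRNA (siCNN3, n = 3), and mRNA was sequenced. CNN3 is an actin-binding protein, and the study asked which genes respond to its loss during differentiation. The labels do not say which CNN3 siRNA was used, nor whether the replicates are separate cultures, so p-values measure the spread between these libraries, which may be technical.

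Actin monomers assemble into filaments that drive contraction in muscle and give shape and movement to every cell. The α-actins are muscle forms: Acta1 makes the actin of skeletal muscle thin filaments, Actc1 that of the heart, which is also used early in skeletal muscle, and Acta2 that of vascular smooth muscle, which myoblasts and myofibroblasts also make. Actg2 makes the γ-actin of enteric smooth muscle. Actb and Actg1 make the cytoplasmic β- and γ-actins. As myoblasts become myotubes, cytoplasmic actins are known to give way to the sarcomeric ones. Many actin genes are targets of the transcription factor SRF, whose cofactors MRTF bind free actin monomers.

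The isoforms differ most at the start of the protein, so the first 45 coding bases of each gene are shown, on the GRCm38 build, with capitals at bases that differ from Acta1 in an alignment, whose gaps are not drawn. The coding sequence without its stop codon has 1131 bases in Acta1 and Acta2, 1128 in Actg2 and 1125 in Actb and Actg1.
Acta1, chr8:123893653-123893697, minus strand: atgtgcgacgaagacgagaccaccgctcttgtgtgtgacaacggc
Acta2, chr19:34252509-34252553, minus strand: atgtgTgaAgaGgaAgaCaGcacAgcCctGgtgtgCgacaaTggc
Actg2, chr6:83527397-83527441, minus strand: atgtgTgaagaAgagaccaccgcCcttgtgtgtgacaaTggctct
Actb, chr5:142905642-142905686, minus strand: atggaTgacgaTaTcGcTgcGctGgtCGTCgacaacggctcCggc
Actg1, chr11:120348047-120348091, minus strand: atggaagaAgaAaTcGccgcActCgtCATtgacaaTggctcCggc
These stretches lie in the first coding exon of each gene. They hold 11 differing bases in Acta2, 4 in Actg2, 12 in Actb and 11 in Actg1. Over the whole coding sequence Acta1 was identical to Acta2 at 85.4% of aligned bases, to Actg2 at 85.0%, to Actb at 84.8% and to Actg1 at 83.6%, while Actb and Actg1 shared 88.6%. Despite this likeness, few exact windows of the muscle genes are shared: 2.22% of the 50-base windows of the main Acta1 transcript, 0.352% of those of Acta2 and 0% of those of Actg2 are found in the annotated transcript of another gene. Which reads could be told apart also depends on read length and allowed mismatches, and was not tested. The share was 14.2% for Actb and 60.7% for Actg1, in which every window of the coding sequence is found elsewhere. At 100 bases 54.7% of Actg1 windows were still shared, with 6 processed pseudogenes of which 0 have deposited FPKM. FPKM of Actg1 is therefore the least certain of the 5, since it depends on how such reads were assigned. Among the 22 genes outside the family that share a 50-base window with an actin gene, 14 are pseudogenes, and 1, Lrrc58, has deposited FPKM.

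Knockdown was checked first. Cnn3 FPKM was 62.8, 61.4 and 62.8 in siNC and 19.04, 39.2 and 25.6 in siCNN3, replicates 1, 2 and 3 in that order here and below. FPKM are fragments per kilobase of transcript with a correction for library size, so levels of different genes may be compared per length. The siCNN3 mean was 44.8% of the siNC mean and the groups did not overlap, but the difference did not pass the threshold (log2 fold change -1.19, SE 0.242, adjusted p = 0.0669 by limma), which it passed only without siCNN3 replicate 2 among the libraries left out in turn (-1.46, adjusted p = 0.0477). All fold changes are on the log2(FPKM + 1) scale, and a gene is called where the limma p, adjusted by the Benjamini-Hochberg method over 11593 genes, is below 0.05.

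Of the 5 actin genes, 1 was called. Acta1, the skeletal muscle gene, fell to 20.1% of its siNC level, while the means of Actg1 differed by less than 1 SD, and Acta2, Actb and Actg2 had siCNN3 means of 57.0%, 73.4% and 78.1% of siNC without passing the threshold. Genes called lower made up 0.336% of all genes tested and genes called higher 1.73%. Genes whose 3 siCNN3 values lay below all 3 siNC values made up 9.35%, and those above 13.8%. The median log2 fold change of all genes was 0.03.

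Acta1 (GRCm38, chr8:123891769-123894751, minus strand) was measured at 24.6, 33.8 and 26.9 FPKM in siNC (28.4 ± 4.80, SD, n = 3), compared with 5.37, 5.35 and 6.43 FPKM in siCNN3 (5.72 ± 0.615, SD, n = 3). All 3 siCNN3 libraries lay far below the lowest siNC library, and the siCNN3 values were close to each other. The log2 fold change was -2.12 (SE 0.161, 95% interval -2.50 to -1.74, adjusted p = 0.00473 by limma). Acta1 ranked 7 by p among all genes, and 4 of 11593 genes had a lower log2 fold change. An exact permutation test gave p = 0.1, the smallest value that 3 against 3 allows. The call held with each library left out in turn, but not in an ordinary test that shares no spread between genes (adjusted p = 0.0964).

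Markers of skeletal muscle were also lower in siCNN3. Of 12 markers fixed for skeletal muscle, 11 have a row and 10 were tested, and 5 of these were called lower and 0 higher: Mylpf, Tnnt3, Tnnc2, Myh3 and Myl1, all of the contractile apparatus. Of all genes, 0.336% were called lower and 1.73% higher. In all 10 tested markers every siCNN3 value lay below every siNC value, compared with 9.35% of all genes. Mylpf, the regulatory light chain of fast myosin, was at 22.8, 36.5 and 25.4 FPKM in siNC, compared with 5.88, 7.36 and 7.16 FPKM in siCNN3 (log2 fold change -1.88, SE 0.199, adjusted p = 0.00990 by limma). The summed level of the list was 163.2 to 188.3 FPKM in siNC and 103.0 to 122.3 FPKM in siCNN3. Most of this sum was the marker Des, at 113.0, 113.4 and 125.1 FPKM in siNC and 86.5, 84.3 and 103.2 FPKM in siCNN3. Des was not called (log2 fold change -0.36, adjusted p = 0.196 by limma). Myog, which drives terminal differentiation, was at 1.23 to 3.07 FPKM in siNC and 0.485 to 0.907 FPKM in siCNN3 (adjusted p = 0.159 by limma). Ckm, the creatine kinase of mature muscle, was near 0 in both groups, at 0.414 to 0.911 FPKM in siNC and up to 0.0760 FPKM in siCNN3, and Ttn, the giant spring of the sarcomere, was not analysed here. In these bulk samples, fewer myotubes and less Acta1 RNA per myotube cannot be told apart.

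Acta2, the smooth muscle α-actin (chr19:34241090-34255590, minus strand), had the second largest difference among the actin genes. It was measured at 233.5, 391.1 and 397.3 FPKM in siNC (340.6 ± 92.8), compared with 190.6, 206.2 and 185.4 FPKM in siCNN3 (194.1 ± 10.8, SD, n = 3). The groups did not overlap, but siNC replicate 1 lay nearer to the siCNN3 libraries than to the other siNC libraries. The log2 fold change of -0.77 (SE 0.210, 95% interval -1.27 to -0.27) did not pass the threshold (adjusted p = 0.132 by limma; exact permutation p = 0.1). Without siNC replicate 1 it did, at -1.02 (adjusted p = 0.0269). Of 8 smooth muscle markers, 5 have a row, and 0 of these were called; Myh11, Myocd and Kcnmb1, which mark smooth muscle, were not analysed here. Their summed level was 74.8 to 104.9 FPKM in siNC and 42.9 to 94.5 FPKM in siCNN3. The ranges overlapped through siCNN3 replicate 3, the other siCNN3 libraries being at 42.9 and 45.5 FPKM, and all 5 markers had a log2 fold change below 0 (median -0.47). Fibroblast markers, of which 0 of 7 tested were called, summed to 1074 to 1476 FPKM in siNC and 716.8 to 879.4 FPKM in siCNN3. This sum does not show whether fibroblasts are present in the line, and its relation to the Acta2 values was not tested.

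Actg2, the enteric smooth muscle γ-actin (chr6:83512905-83536265, minus strand), was the lowest of the 5 in siNC. It was at 10.3, 12.5 and 17.1 FPKM in siNC (13.3 ± 3.45), compared with 10.2, 12.3 and 8.69 FPKM in siCNN3 (10.4 ± 1.84). Values of both groups overlapped, and the log2 fold change was -0.31 (SE 0.214, 95% interval -0.82 to 0.19, adjusted p = 0.525 by limma).

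The cytoplasmic actins were the most abundant per length. Actb (chr5:142903115-142906754, minus strand), whose β-actin is a common reference in RNA and protein work, was at 415.3, 611.3 and 720.5 FPKM in siNC (582.4 ± 154.6), compared with 487.7, 474.3 and 320.3 FPKM in siCNN3 (427.4 ± 93.1). The groups overlapped, since siNC replicate 1 lay below siCNN3 replicates 1 and 2, and the spread inside each group was wide. Its log2 fold change was -0.43 (SE 0.245, 95% interval -1.02 to 0.15, adjusted p = 0.434 by limma). Actg1 (chr11:120345690-120348542, minus strand) was the steadiest of the family, at 438.4, 407.5 and 428.8 FPKM in siNC (424.9 ± 15.8), compared with 419.2, 425.05 and 433.9 FPKM in siCNN3 (426.0 ± 7.38). Its log2 fold change was 0.00436 (SE 0.0823, 95% interval -0.19 to 0.20, adjusted p = 0.988 by limma), with a sign that turned under other scalings.

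**Figure D1:**
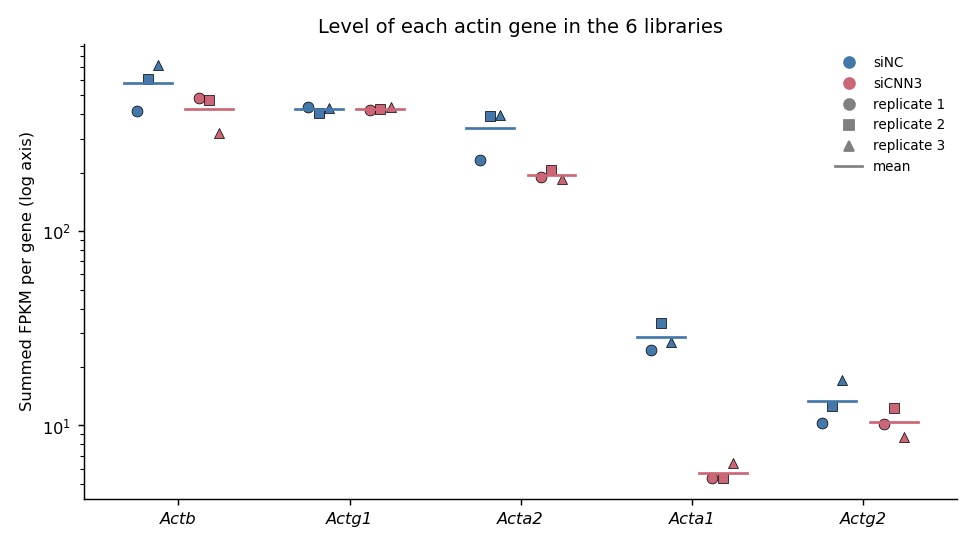
Summed FPKM of each actin gene (log axis) in the 3 siNC (blue) and 3 siCNN3 (red) libraries, with a symbol for each replicate and a line at the group mean. The siCNN3 libraries of Acta1 sit between 5.35 and 6.43 FPKM, all below the siNC libraries, while those of Actg1 lie within the siNC range.

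**Figure D2:**
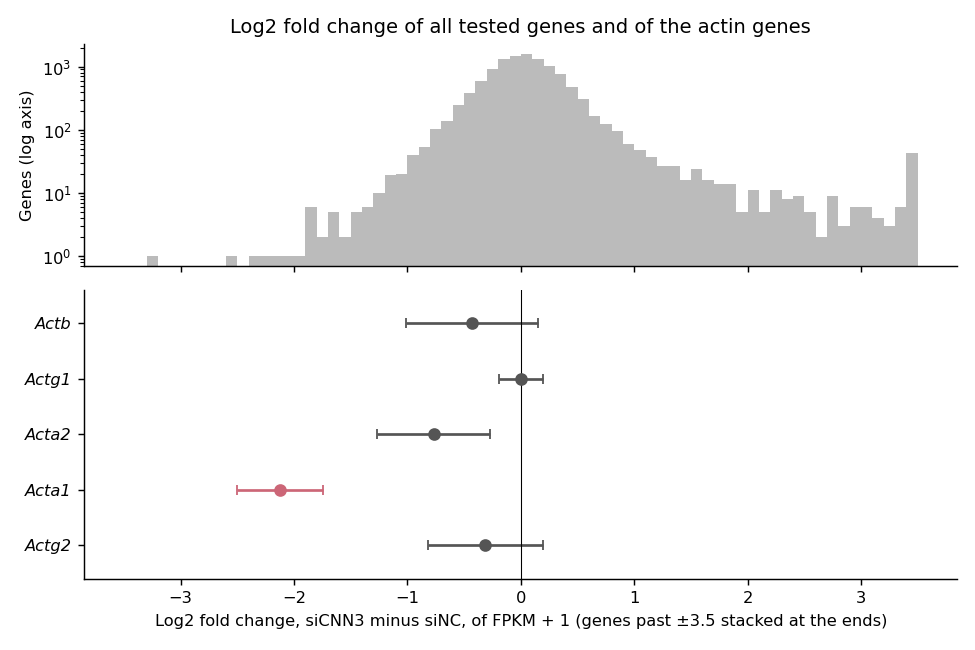
Histogram of the log2 fold change (siCNN3 minus siNC, of FPKM + 1) of all 11593 genes on a log count axis, above the value of each actin gene with its 95% interval from limma. Acta1, in red, is the only actin gene called, at -2.12; the intervals of Actg2, Actb and Actg1 include 0, and that of Acta2 does not, though its adjusted p is 0.132.

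In siNC, the order of levels was Actb and Actg1, Acta2, Acta1 and Actg2. Actb and Actg1 could not be ranked, since Actg1 was the higher one in replicate 1 and Actb in replicates 2 and 3. Actg1 was above Acta2 in 3 of 3 siNC libraries, widely in replicate 1 (438.4 and 233.5 FPKM) and narrowly in replicates 2 (407.5 and 391.1 FPKM) and 3 (428.8 and 397.3 FPKM). In siCNN3, the ranges of Actb and Actg1 again overlapped, and Acta2 followed below both. The order of the last genes turned: Acta1 was above Actg2 in 3 of 3 siNC libraries and below it in 3 of 3 siCNN3 libraries. On the log2(FPKM + 1) scale the ratio of Acta1 to Actg2 was 1.06 on average in siNC and -0.75 in siCNN3, a difference of -1.81. Since this ratio was chosen after the turn had been seen, its exact permutation p of 0.1 was fixed in advance.

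Ratios between genes of the same library depend little on the scaling between libraries, apart from the pseudocount of 1 added to each gene. The log2 ratio of Acta1 to Actb was -4.28 ± 0.359 in siNC and -5.97 ± 0.467 in siCNN3 (SD, n = 3), with no overlap and a difference of -1.69 (two-sided exact permutation p = 0.1, the smallest possible). With Acta2 or Actg1 in place of Actb, chosen after seeing the data, the difference was -1.35 and -2.13, each with no overlap and an exact permutation p of 0.1. By contrast, the ratios of the other genes to Actb overlapped between groups, with differences of -0.34 for Acta2 (exact p = 0.3), 0.12 for Actg2 (exact p = 0.4) and 0.44 for Actg1 (exact p = 0.3). With a pseudocount of 0.1 the difference for Acta1 to Actb was -1.85.

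The make-up of the actin RNA is given as shares of the summed actin FPKM, as a description with no test. Acta1 made up 2.19%, 2.32% and 1.69% in siNC and 0.483%, 0.476% and 0.673% in siCNN3. Acta2 made up 24.2% ± 3.10 and 18.3% ± 1.152, and the 3 muscle genes together 27.2% ± 3.09 and 19.8% ± 1.25, with the highest siCNN3 library at 21.01% and the lowest siNC library at 23.9%. Actb made up 41.4% ± 4.17 and 39.9% ± 5.53, and Actg1 31.3% ± 6.71 and 40.3% ± 4.44. Most of the difference in muscle actin is thus that of Acta2, which is far more abundant than Acta1 in these cells. The 5 genes held 0.348%, 0.415% and 0.458% of the FPKM of a library in siNC and 0.313%, 0.319% and 0.271% in siCNN3.

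**Figure D3:**
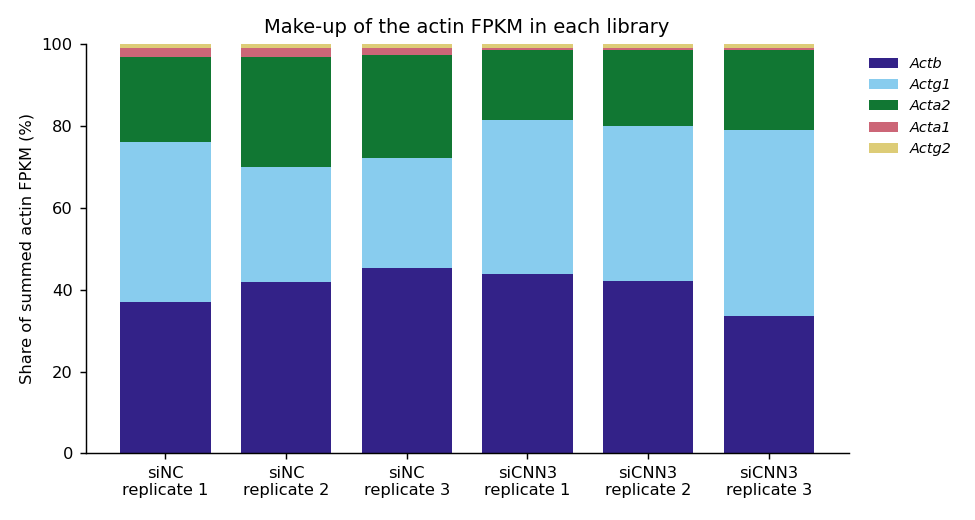
Share (%) of the summed actin FPKM held by each of the 5 genes, stacked to 100% for each of the 6 libraries. Acta1 thins from 1.69% to 2.32% in siNC to 0.476% to 0.673% in siCNN3, and Actg1 ranges from 27.0% in siNC replicate 3 to 45.4% in siCNN3 replicate 3.

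The libraries of a group were not alike. Replicate 1 was the lowest siNC library for Acta1, Acta2, Actg2 and Actb, and its FPKM summed to 322621, compared with 347064 to 355591 in the other libraries. Replicate 3 was the lowest siCNN3 library for Acta2, Actg2 and Actb. Interferon-response genes, 8 of 10 called higher and 0 lower, summed to 25.2, 372.4 and 109.6 FPKM in siNC and to 3749, 3545 and 1906 FPKM in siCNN3. Of all genes, 1.73% were called higher and 0.336% lower. Blood markers, chiefly globins, summed to 229.9 to 656.8 FPKM in siNC and 53.5 to 75.0 FPKM in siCNN3, with 2 of 5 called lower and with Ptprc and Adgre1, which mark leukocytes, not analysed here. Heart markers, 0 of 4 called, summed to 17.2 to 18.4 FPKM in siNC and 16.2 to 25.8 FPKM in siCNN3. The part of these differences in the actin values was not tested.

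The 5 genes have 13 deposited transcripts, which were summed for each gene, and a single transcript carries most of each gene. Acta1-201, of 1446 bases and 7 exons, held between 92.5% and 100% of Acta1 FPKM and was called lower (log2 fold change -2.09, SE 0.191, adjusted p = 0.0263 by limma over 21658 transcripts). Transcripts called lower made up 0.0785% of those tested and those called higher 0.462%. Acta1-202, a shorter one of 616 bases, was listed at 0 in siCNN3 replicates 1 and 3 and was not called (-0.81, adjusted p = 0.489 by limma). Acta2 and Actg2 have 1 deposited transcript each. Actb-201 held 96.2% to 97.6% of Actb FPKM (log2 fold change -0.43, adjusted p = 0.5996 by limma), and the other 4 Actb transcripts were not called.

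Actg1 was less even below the level of the gene. Actg1-204, the main transcript, was at 411.7, 355.5 and 354.9 FPKM in siNC, compared with 390.0, 394.3 and 405.5 FPKM in siCNN3 (log2 fold change 0.09, SE 0.0887, adjusted p = 0.762 by limma). Actg1-202 was at 23.3, 46.7 and 67.9 FPKM in siNC, compared with 25.5, 27.9 and 25.3 FPKM in siCNN3 (-0.66, SE 0.370, adjusted p = 0.590 by limma). The siCNN3 libraries agreed closely for Actg1-202, while siNC spread from below them to more than any of them. Its share of the gene was 5.31%, 11.5% and 15.8% in siNC and 6.09%, 6.56% and 5.84% in siCNN3. Actg1-202, of 1952 bases, holds all 1827 bases of Actg1-204 as 1 stretch, with 124 more before it and 1 after, so the 124 bases are nearly all that tells the 2 transcripts apart. Actg1-204 is annotated with 0 bases before its start codon. How reads of the shared stretch were split between the 2 transcripts was not tested.

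**Figure D4:**
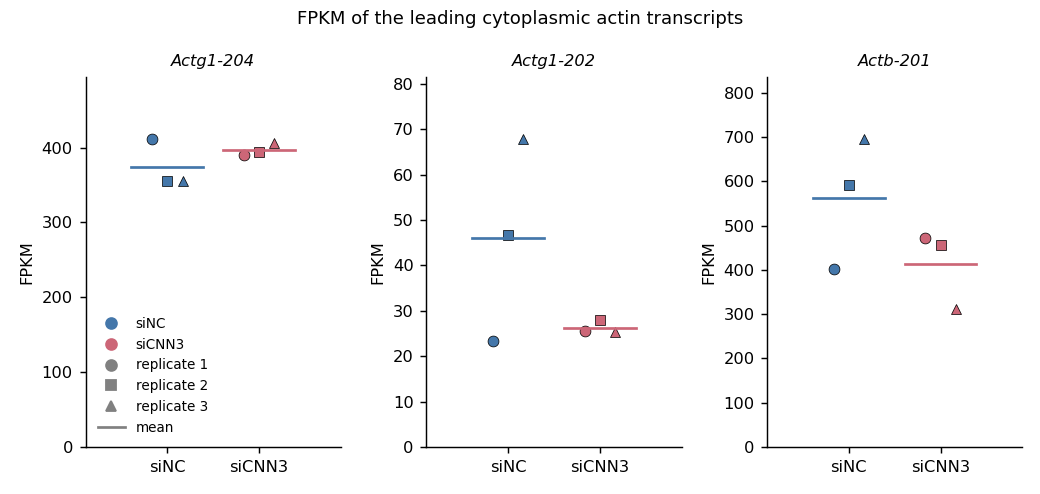
FPKM of Actg1-204, Actg1-202 and Actb-201 in each library, with a symbol for each replicate and a line at the group mean; each panel has its own axis from 0. Actg1-202 ranges from 23.3 to 67.9 FPKM in siNC and from 25.3 to 27.9 FPKM in siCNN3.

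SRF binds a motif of 10 bases, the CArG box, and Acta1, Acta2 and Actg1 were searched on both strands in the 250 bases before the start, taken from RefSeq (GRCm38.p6). The promoters of Actb and Actg2 were not analysed here. The windows of the exact box in Acta1 and Actg1 and of the boxes in Acta2, which has no exact one, are shown with 10 bases on either side, in the direction of the gene, the box in capitals.
Acta1, chr8:123894829-123894858, minus strand: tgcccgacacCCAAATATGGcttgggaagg
Actg1, chr11:120348566-120348595, minus strand: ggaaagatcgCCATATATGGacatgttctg
Acta2, chr19:34255438-34255467, minus strand: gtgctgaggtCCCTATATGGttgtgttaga
Acta2, chr19:34255388-34255417, minus strand: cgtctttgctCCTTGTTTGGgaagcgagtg
Acta1 holds an exact CArG box at -73 to -64 and Actg1 at -90 to -81, counted from the start, while the Acta2 boxes shown, at -84 to -75 and -34 to -25, each have 1 C or G inside. The start is that of the RefSeq entry and not of the gene span given above. Both Acta2 boxes lie inside that span of Acta2. Acta1 holds boxes of that looser kind at -205 to -196 and -154 to -145 as well, whose windows are not shown. An exact box is found in 1.47% of 32851 promoters of the same length, and a box with at most 1 C or G inside in 8.59%. A match is only a description of these letters, and binding of SRF was not tested.

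Of the SRF list (SRF, its cofactors and targets other than actins), 17 genes were tested, of which 1 was called higher and 0 lower. The called gene was Fhl2, a LIM-domain cofactor that binds SRF, which rose from 26.6, 26.5 and 31.6 FPKM in siNC to 44.0, 48.4 and 52.0 FPKM in siCNN3 (log2 fold change 0.75, SE 0.126, adjusted p = 0.0403 by limma). All 3 siCNN3 values were above the siNC values. The call held in 1 of 6 fits with a library left out, without siCNN3 replicate 3 (adjusted p = 0.0436), and adjusted p otherwise reached up to 0.189. It was also lost with quantile normalization (adjusted p = 0.0506 by limma), without the trend (0.0565), with the highest transcript only (0.05996) and in the ordinary test of each gene (0.129). In the list, 2 genes (11.8%) had siCNN3 values all above and 4 (23.5%) all below siNC, compared with 13.8% and 9.35% of all genes. The median log2 fold change of the list was -0.15.

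Genes that bind actin monomers or turn over filaments had lower siCNN3 means for the most part, but 0 of 24 tested were called. The log2 fold change was below 0 in 21 of them, compared with 46.0% of all genes, with a median of -0.18. Values of siCNN3 were all below siNC in 7 (29.2%) and all above in 0, compared with 9.35% and 13.8% of all genes. The members with the smallest p were Twf1, which caps filament ends and binds monomers (86.2 and 63.3 FPKM on average in siNC and siCNN3, log2 fold change -0.44, adjusted p = 0.0913 by limma), Dstn, a filament-severing protein of the cofilin family (164.0 and 124.4 FPKM, -0.39, adjusted p = 0.137 by limma) and Capzb, the β subunit of capping protein (142.2 and 111.4 FPKM, -0.35, adjusted p = 0.144 by limma). Twf1 passed the threshold with median-of-ratios scaling, with quantile normalization and after removal of GC and length trends, Capzb passed with quantile normalization, and Gsn and Cfl2 of this list passed without siCNN3 replicate 3, as did Coro1c without siCNN3 replicate 1.

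Among genes of actin nucleation, which start new filaments, 0 of 28 were called, 2 (7.14%) lay above and 4 (14.3%) below without overlap, and the median was -0.06. Of all genes, 13.8% lay above and 9.35% below without overlap. Whamm, an activator of the Arp2/3 complex, was at 4.25 and 6.76 FPKM on average in siNC and siCNN3 (log2 fold change 0.57, adjusted p = 0.0917 by limma). Arpc5l, an Arp2/3 subunit, was at 26.4 and 50.3 FPKM (0.89, adjusted p = 0.0922 by limma) and passed without siCNN3 replicate 3, as did Inf2 of this list (-0.53 in that fit). The formin Daam2 was at 2.09 and 0.639 FPKM (-0.90, adjusted p = 0.125 by limma).

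Of 19 genes that fold or modify actin 0 were called, 7 had a log2 fold change below 0 (46.0% of all genes did), and the median was 0.17. Values of siCNN3 were all above siNC in 5 of them (26.3%) and all below in 1 (5.26%), compared with 13.8% and 9.35% of all genes. Cct7 and Cct4, subunits of the chaperonin CCT that folds actin and tubulin, were at 97.0 and 128.2 FPKM (log2 fold change 0.39, adjusted p = 0.131 by limma) and at 80.8 and 95.4 FPKM (0.24, adjusted p = 0.338 by limma) on average in siNC and siCNN3. Mical1, an enzyme that oxidizes actin and disassembles filaments, was at 14.5 and 11.2 FPKM (-0.34, adjusted p = 0.290 by limma).

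Actin-related proteins share the fold of actin, many of them as parts of dynactin or chromatin complexes, and 0 of 7 tested were called. Actr6, of a chromatin remodelling complex, had the smallest p (11.6 and 16.5 FPKM on average in siNC and siCNN3, log2 fold change 0.47, adjusted p = 0.125 by limma), followed by the dynactin subunits Actr1b (34.9 and 29.4 FPKM, -0.24, adjusted p = 0.350 by limma) and Actr1a (53.7 and 46.3 FPKM, -0.21, adjusted p = 0.365 by limma). The median of this list was -0.06.

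**Figure D5:**
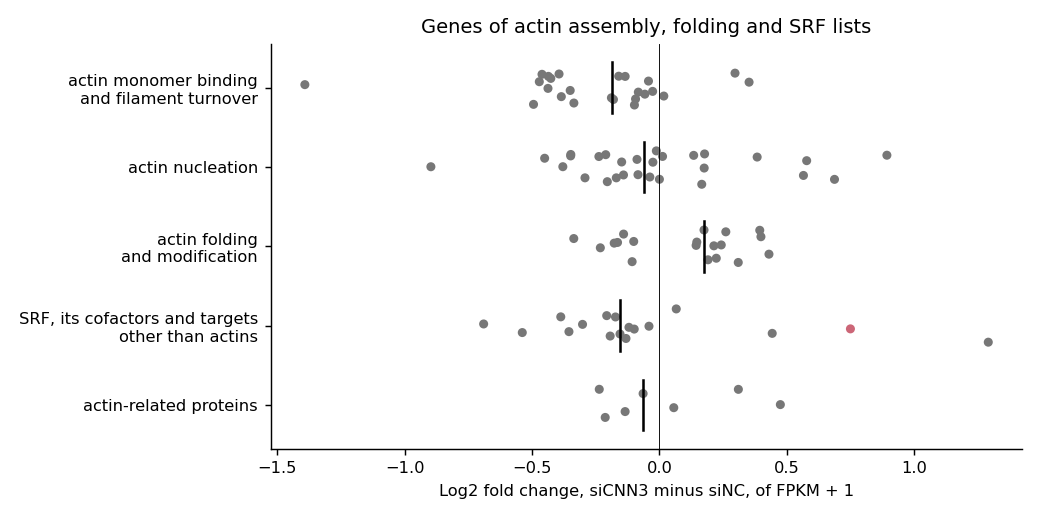
Log2 fold change (siCNN3 minus siNC, of FPKM + 1) of each tested gene of 5 lists of actin regulation, 1 point a gene, with a bar at the median of the list; the gene called, Fhl2, is in red. In the turnover list 21 of 24 points lie below 0, and in the folding list 7 of 19, compared with 46.0% of all genes.

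Genes whose log2(FPKM + 1) followed that of an actin gene most closely over the 6 libraries were taken from 8180 genes averaging 5 FPKM or more, as a description in which the libraries of a group share their treatment. For Acta1 these were Lztr1 (Pearson r = 0.993), Atp13a3 (0.993) and Mylpf (0.992), and for Acta2 Ago1 (0.994), Elovl6 (0.994) and Pdlim5 (0.992). For Actg2 they were Prdx1 (0.987), Mpdz (0.986) and Thbs2 (0.982), for Actb Syncrip (0.991), Adgrg6 (0.989) and Polr2b (0.981), and for Actg1 Alcam (0.985), Gbe1 (0.981) and Ier3 (0.980). Mylpf is the only one of these 15 that is among the fixed skeletal muscle markers.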

How the data were processed

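RNA of 3 siNC and 3 siCNN3 samples of C2C12 cells was sequenced. The deposited values are FPKM, which the authors made for 24023 Ensembl transcripts; the submitters' processing notes name Bowtie 0.12.2 and the builds mm8 and mm10 without giving their roles, and the program that estimated FPKM is not given in the sources used here. The depth is unknown, since the file holds no counts and its smallest non-zero value is 1e-06 FPKM. No counting error can be given, and the precision rests on the replicates.

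Transcripts were matched to GENCODE M21 (GRCm38) without their version (23949 matched, 22790 with the version), and FPKM were summed for each of 11835 genes. The 74 unmatched transcripts held 0.159% to 0.220% of FPKM. The moderated test of limma 3.58.1 (R 4.3.3) was run with a mean-variance trend and no replicate block on log2(FPKM + 1) of genes averaging 0.5 FPKM or more, with Benjamini-Hochberg adjustment and a threshold of 0.05. Adding 1 to FPKM before the log2 understates changes of low genes. The fit was tested on simulated data. Ratios used a two-sided exact permutation test. Shared windows and coding identity were computed with Python 3.11.15 and Biopython 1.88.

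Named genes are the actin genes, Cnn3, called members of each list (at most 4, by size; otherwise the 3 with the smallest p), and the 3 genes most alike to each actin gene; marker genes, Lrrc58, Gsn, Cfl2, Coro1c and Inf2 were named after their values were seen. The members and lists were chosen with earlier results of these data known. Alternatives in pseudocount, filter, scaling, block, trend, transcripts, GC and length, threshold and libraries are given at the end.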

Additional observations from a re-analysis of the deposited data

How the results depend on the processing

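Acta1 kept its call in 18 of 19 alternatives, with log2 fold changes of -2.29 to -1.995 (-2.22 to -1.995 with a library left out in turn); in the ordinary test of each gene it was -2.12 with an adjusted p of 0.0964. Acta2 passed under an unadjusted p below 0.05 with a fold change of 1.5 (-0.77) and without siNC replicate 1; with libraries left out it ranged from -1.02 to -0.64, Actb from -0.66 to -0.24, Actg2 from -0.47 to -0.13 and Actg1 from -0.025 to 0.027. The log2 fold change of Actg1 turned negative with median-of-ratios scaling (-0.032), quantile normalization (-0.065), GC and length trends removed (-0.041, also with the replicate block, -0.041), without siNC replicate 2 (-0.025) and without siCNN3 replicate 3 (-0.00881), always with an adjusted p of at least 0.669 by limma.

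The count of called genes was 239 (83.7% higher). It became 68 with the replicate block, 67 with GC and length trends removed and the block, 122 with the highest transcript only and 981 with the unadjusted rule (69.3% higher). The ordinary test called 0, with 1800 genes at an unadjusted p below 0.05. With a library left out it ranged from 20 (without siNC replicate 3) to 602 (without siCNN3 replicate 3, 73.6% higher); it was 99 without siNC replicate 1 (71.7% higher), 46 without siCNN3 replicate 1 and 32 without siCNN3 replicate 2. Quantile normalization called 292, 68.2% of them higher. In the lists, 1 gene was called (Fhl2). The count was 2 with median-of-ratios scaling (Fhl2 and Twf1), 2 with quantile normalization (Capzb and Twf1, without Fhl2), 2 with GC and length trends removed (Fhl2 and Twf1), 0 with the block, without the trend, in the ordinary test and with the highest transcript only, 7 with the unadjusted rule, and 0 to 5 with a library left out (without siCNN3 replicate 1 the gene called was Coro1c, not Fhl2). The cause of these shifts was not tested.

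Same-numbered samples did not deviate together (correlations of -0.28, 0.31 and -0.02), and siNC replicate 1 correlated best with siCNN3 replicate 3 (0.44), so the numbers were not taken to pair the samples. With the replicate block Acta1 was still called (adjusted p = 0.0293 by limma), Fhl2 was not (adjusted p = 0.108, and 0.117 with GC and length trends removed as well), and the transcript Acta1-201 was not (-2.09, adjusted p = 0.183). Depth is unknown, and 3 libraries a group limit what a missed threshold can show.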
